A study of Mus musculus with 18 samples.

Results

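The genes described here build proteins from mRNA: the factors that start translation (symbols beginning with Eif), the factors that lengthen the chain (symbols beginning with Eef) and the aminoacyl-tRNA synthetases (symbols ending in ars, ars1 or ars2, of at most 6 characters). They were chosen by symbol alone, from every probe set of 2 oligonucleotide array types that is annotated to a single gene. The choice gave 80 probe sets for 56 genes, out of 13057 probe sets, of which 7542 carry a single symbol and represent 6137 genes. By role, 35 genes were counted under initiation (51 probe sets), 7 under elongation (11 probe sets) and 14 under tRNA charging (18 probe sets). Roles follow the symbols, so initiation includes the regulators Eif2ak2, Eif4ebp1, Eif4ebp2 and Eif4enif1, and elongation the kinase Eef2k.

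Translation starts when the ternary complex of eIF2, GTP and initiator tRNA joins the small ribosomal subunit, which carries eIF3, eIF1 and eIF1A, and when the cap-binding complex eIF4F, with its helicase eIF4A, opens the mRNA leader for scanning. The elongation factor eEF1 then brings charged tRNAs to the ribosome and eEF2 moves the ribosome along, while each synthetase joins one amino acid to its tRNAs. The pathway is controlled at a few points: 4E-BP proteins hold the cap-binding protein until mTORC1 phosphorylates them, eIF2 kinases block the exchange factor eIF2B, and the transcription factor Atf4, made when eIF2 is phosphorylated, switches on amino acid supply and several synthetase genes. In the early embryo, which grows fast, they are among the highly expressed housekeeping genes.

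Mouse embryos of embryonic day 9.5 were divided into 3, and total RNA of the middle portion was measured. The embryos were wild type, heterozygous mutant or homozygous mutant (null in the titles) for Nkx2-5, also called Csx, a homeobox transcription factor of the forming heart, in a model of congenital heart disease. Neither the mutant allele nor the strain is given in the sources used here. Each genotype had 3 arrays of type a and 3 of type b, 18 arrays in all, and the array types carry different probe sets. Replicates are listed below in the order 1, 5, 7 for wild type, 3, 4, 8 for heterozygous embryos, and 2, 6 and 8a or 9b for homozygous mutants, where 8a is the last mutant array of type a and 9b that of type b. It is not stated whether an array holds an embryo or a pool, nor whether 8a and 9b hold one RNA, so p-values reflect no more than the spread among these samples, and that spread may be technical. Because whole tissue was measured, fewer cells of a type and less RNA per cell cannot be told apart.

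Arrays 8a and 9b stood apart: their actin 3' to 5' signal ratios were 2.50 and 2.28, against 0.85 to 1.41 on the other arrays, and their signals of the spiked BioB control were 3950 and 4531, against 966 to 2320.4. The part of RNA quality in the results was not tested. No probe set carries the symbol Nkx2-5, so the labels could not be checked on the targeted gene.

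An intensity here is the deposited background-subtracted signal of a probe set, scaled to a common trimmed mean on every array. A probe set was tested if it exceeded a noise floor, 375 on type a and 523 on type b, on at least 3 of the 9 arrays of its type, and lower values were raised to that floor. Of the member probe sets, 65 for 50 genes passed (40 for initiation, 9 for elongation and 16 for tRNA charging), 58 of them above the floor on all 9 arrays, while 9 probe sets exceeded it on no array and 6 on 1 or 2 arrays. The 6 genes with no tested probe set were Eif2ak2 (the RNA-activated eIF2 kinase), Eif3i, Eif4e (the cap-binding protein), Eif4enif1, Eif4h and Eef1a2, the elongation factor isoform of adult muscle and neurons. Differences are log2 fold changes from limma, given with the standard error (SE), and a call means an adjusted p under 0.05 over all 6935 tested probe sets. Of the 16 member probe sets with a difference of mutants from wild type over 0.4 in size, 6 moved by over 1.5 times without array 8a or 9b, and those 6 are given both ways.

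In homozygous mutants against wild type, 0 of the 65 member probe sets were called by limma, against 0.692% of all tested probe sets. At an unadjusted p under 0.05 there were 10, each with the higher mean in the mutants, against 11.2% of all probe sets. The values of the 3 mutants lay above all 3 wild-type values in 10 probe sets, against 7.24% of all, and below them in 0, against 8.19% of all. Those 10 above were 5 of initiation (Eif3k, Eif4a2, both probe sets of Eif4b, and Eif4ebp1), 3 of elongation (Eef1a1, Eef1b2, Eef1g) and 2 of tRNA charging (Cars and Qars). At the brightest tested probe set of each gene, 43 of 50 member genes (86%) lay within a log2 difference of 0.5 in either direction, against 85.3% of all tested genes.

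Elongation had the highest median of the roles. Over 6 elongation genes, each taken at its brightest tested probe set, the median log2 difference of mutants from wild type was 0.22, with 5 positive and 1 negative. The negative one was Eef2k, a kinase that inhibits eEF2, and the 5 elongation factors proper had a median of 0.32. Of those factors, all but Eef1d were read on probe sets that the array design marks as shared by related sequences. Over 30 initiation genes the median difference was -0.08, with 14 positive and 16 negative. Taken by replicate, the initiation median was 0.009 in mutant 2, 0.099 in mutant 6 and 0.001 in mutant 8a and 9b. Those of wild type ran from -0.14 to 0.08, and no mutant replicate had a negative median. Over 14 charging genes the median difference was 0.04, with 7 of each sign, while all 3909 tested genes had a median of -0.03. By replicate, the elongation median was 0.04 in mutant 2, 0.38 in mutant 6 and 0.48 in mutant 8a and 9b, against -0.12 to 0.07 in the wild-type replicates. Mutant 2 therefore lay within the wild-type range. The median of the difference was 0.48 without mutant 2, 0.18 without mutant 6 and 0.16 without mutant 8a and 9b.

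**Figure D1:**
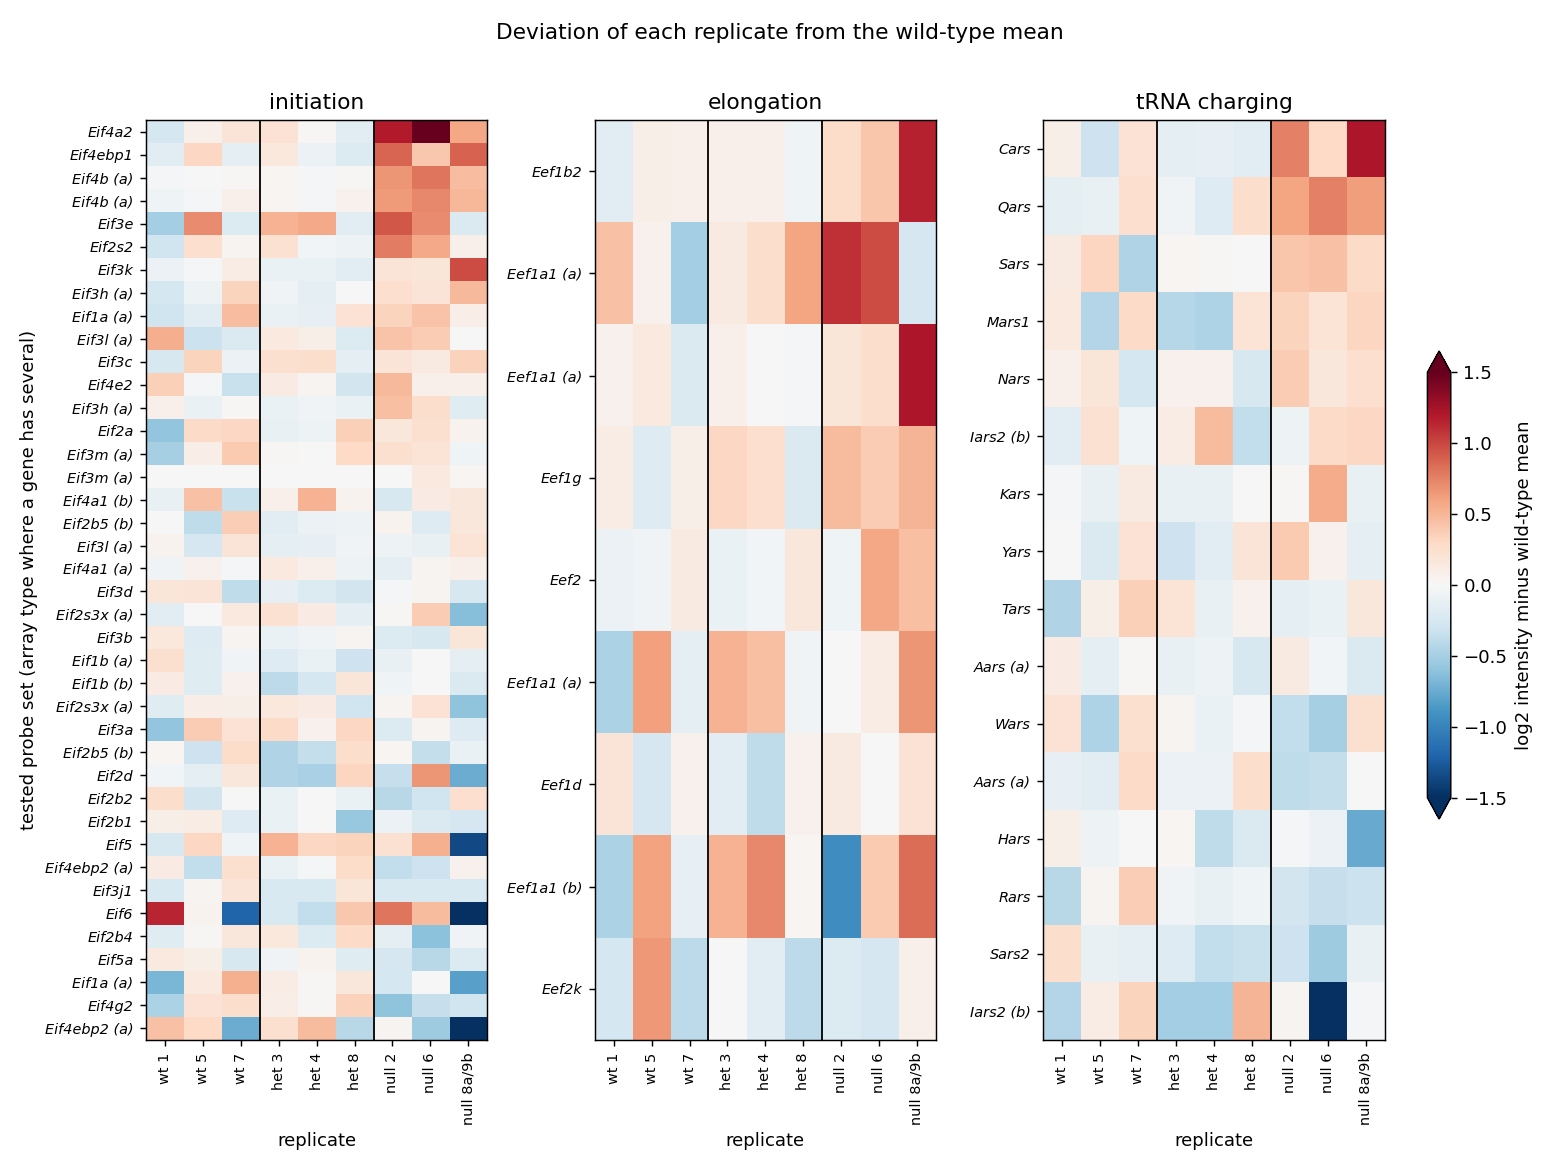
Colours show log2 intensity (values under the floor set to it) minus the wild-type mean for the 65 tested probe sets in rows, by role, over 9 replicates in columns; the scale ends at 1.5 in either direction. Eif4a2, Eif4ebp1 and both Eif4b probe sets were above the wild-type mean in each mutant replicate, while Eif6, Eif5 and one Eif4ebp2 probe set had their lowest value in mutant 8a or 9b.

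**Figure D2:**
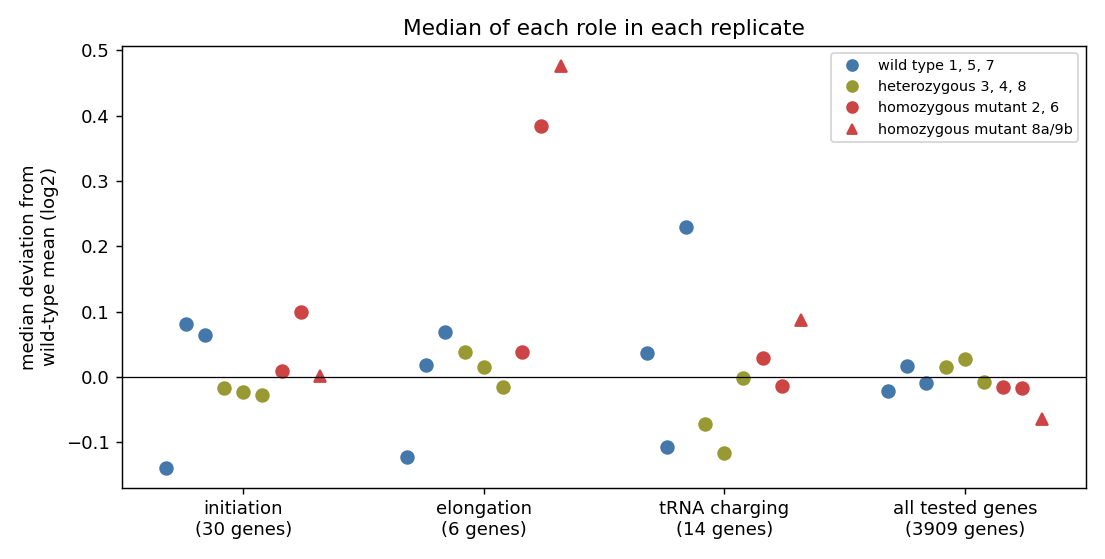
Points show, for each replicate, the median over a role's genes of the log2 deviation from the wild-type mean; triangles are mutant 8a and 9b. The elongation medians of mutants 6 and 8a and 9b were 0.38 and 0.48, above those of every other replicate. The initiation medians of mutants lay above those of heterozygotes and overlapped those of wild type, and the charging medians overlapped between genotypes.

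Within initiation, Eif4a2, Eif4ebp1 and Eif4b had the highest mutant differences. The 5 tested genes of the cap and helicase group, which prepares the mRNA for scanning, ranged from -0.41 for Eif4g2 to 1.09 for Eif4a2, with 4 positive and a median of 0.21. Eif4b encodes the cofactor that stimulates the eIF4A helicase. Its first probe set read 12815, 12939.5 and 13077 in wild type, 13186, 12682 and 13150 in heterozygotes and 20432, 22511 and 17842 in homozygous mutants. The mutant values lay well above the other 6, which differed little among themselves, with means of 12944 ± 131 (SD, n = 3) in wild type, 13006 ± 281 (SD, n = 3) in heterozygotes and 20262 ± 2339 (SD, n = 3) in mutants. The log2 difference of mutants from wild type was 0.64 ± 0.13, a 1.56-fold level, with a limma adjusted p of 0.0580. The second probe set, made from the same cDNA sequence and so not independent, read 6219.9, 6412 and 6868, then 6615, 6440.1 and 6813, then 10103, 10729 and 9152, with a difference of 0.62 ± 0.13 and a limma adjusted p of 0.0505. Both missed the threshold against wild type and both passed it without mutant 8a, at log2 differences of 0.73 and 0.68 and limma adjusted p of 0.0140 and 0.0303.

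Eif4a2 encodes one of the isoforms of the eIF4A helicase itself. It read 5916, 7498 and 8132 in wild type, 8285, 7221 and 6357 in heterozygotes and 16175, 20104 and 10656 in mutants. The lowest mutant value, that of 9b, still lay above every other value, and the mutant mean was 15645 ± 4746 (SD, n = 3) against 7182 ± 1141 (SD, n = 3). The log2 difference was 1.09 ± 0.24 (2.13-fold, limma adjusted p 0.0732), and it was 1.34 without 9b, with a limma adjusted p of 0.0158. The isoform Eif4a1 did not share that pattern: its type b probe set read 24684, 36078 and 21179 in wild type and 22554, 28944 and 29840.1 in mutants, groups that overlapped, with a log2 difference of 0.02 ± 0.24. Its type a probe set gave -0.01 ± 0.14, of the opposite sign and also within its error. Both Eif4a1 sets are of a class that the array design marks as shared by related sequences. Whether related sequences also contribute to the probe sets of Eif4a2 or of other members was not tested.

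**Figure D3:**
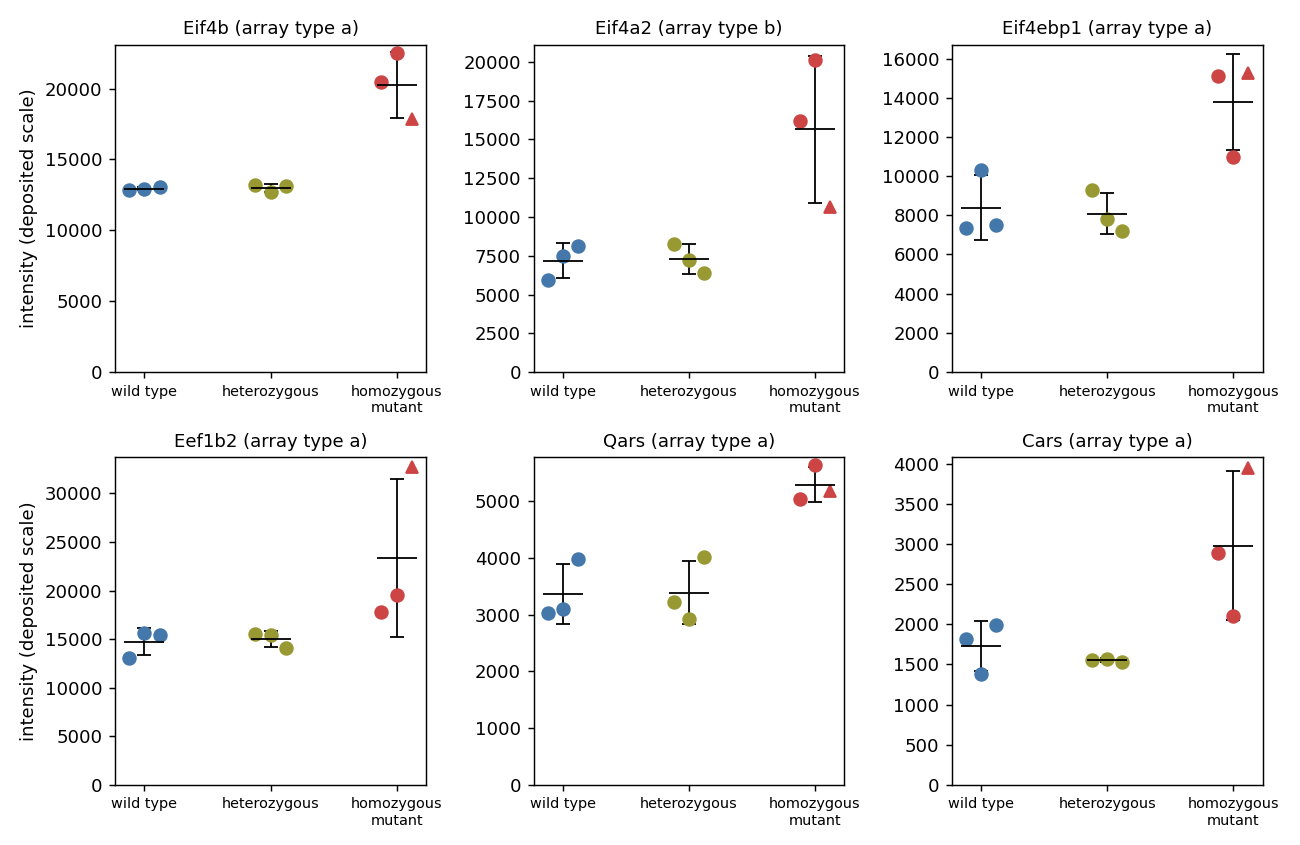
Points show the intensity (deposited linear scale) in each replicate of 6 genes by genotype, triangles mark mutant 8a or 9b, and bars give mean and SD (n = 3). In all 6 panels each mutant value lies above the 6 values of wild type and heterozygotes. All 6 genes are among the members listed above with every mutant over wild type, so the panels are no separate result.

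Eif4g2, also called DAP5, is related to the eIF4G scaffold but lacks the binding site for the cap-binding protein. It had the lowest mutant difference among the initiation genes at their brightest probe sets, -0.41 ± 0.20 (limma adjusted p 0.469). It read 7907, 12786 and 13252 in wild type and 7274, 8677 and 8965 in mutants, and the groups overlapped through the low value of wild type 1. Eif4e2, a cap-binding relative of Eif4e, gave 0.21 ± 0.22 (limma adjusted p 0.802).

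The start of the Eif4b gene is shown because TOP mRNAs, whose translation is controlled by mTORC1, begin with a C followed by an unbroken run of C and T, and Eif4b and the elongation factors are known TOP genes. The windows below run from 40 bases before to 20 after the RefSeq start in the GRCm38.p6 assembly, 5' to 3' on the gene's strand, and capitals mark runs of 7 or more C or T. Eif4b lies at chr15:102073733-102073792 on the plus strand, and Eif4a2, printed for comparison, at chr16:23107428-23107487 on the plus strand.
Eif4b: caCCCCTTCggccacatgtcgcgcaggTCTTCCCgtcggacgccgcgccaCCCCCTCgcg
Eif4a2: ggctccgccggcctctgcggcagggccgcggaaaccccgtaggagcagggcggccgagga
The Eif4b window holds runs of 7 or more C or T, none of them at the RefSeq start, and the Eif4a2 window holds none. The log2 differences in mutants were 0.64 for Eif4b and 1.09 for Eif4a2. Of the 56 genes, 42 had a window in the table. A run of at least 7 C or T in these 60 bases, searched on the gene's strand, was found in 18 of the 42 (42.9%), against 35.3% of 27025 windows of all genes. A match is only a description of the letters in this window.

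Start site selection and the ternary complex held no member that passed the test. Eif1a, which helps find the start codon, gave opposite signs: its brighter probe set read 1577, 2805 and 3650.3 in wild type and 2102, 2521 and 1438 in mutants (-0.36 ± 0.30), and its dimmer one gave 0.29 ± 0.24. Each pair of groups overlapped. Eif2s2, the beta subunit of eIF2, was singled out after its values were seen: it read 7018, 10251 and 8873 in wild type and 14713, 12726 and 9069.9 in mutants, a difference of 0.47 ± 0.20 with a limma adjusted p of 0.413. Mutant 8a lay inside the wild-type range and the other mutants above it. Eif2s3x, the X-linked gamma subunit, gave -0.12 ± 0.21 and -0.08 ± 0.23 for its 2 probe sets, with the lowest of all 9 values on 8a (7514 and 6822). Without 8a the second probe set turned to 0.20. No probe set carries the symbol of the Y-linked copy, Eif2s3y. Xist, the 1 tested marker of sex, was also lowest on 8a, at 576, against 2052 and 1480 in mutants 2 and 6. It read 738 to 998 in wild type and 967 to 1707 in heterozygotes. The part of embryo sex in these values was not tested.

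Low values on the last mutant array also set the difference of Eif5, the GTPase-activating factor of the ternary complex. It read 1123, 1651 and 1273 in wild type and 1558, 1919.6 and 166 in mutants, the last under the floor, and the log2 difference of -0.20 ± 0.43 turned to 0.38 without 9b. Eif6, which keeps the large ribosomal subunit from joining too early, was singled out after its values were seen and read 3465, 1636 and 687 in wild type and 2739.7, 2186 and 105 in mutants. The first 2 mutants of Eif6 lay inside the wild-type range and the last under the floor, and the difference of -0.26 ± 0.71 turned to 0.64 without 8a. Eif5a, a hypusine-carrying factor that also aids elongation, read 22649.5, 21661 and 17329 in wild type and 17148, 15338 and 17681 in mutants, with a difference of -0.29 ± 0.17 (limma adjusted p 0.581). Of the mutants, array 9b alone overlapped wild type there, lying just above wild type 7. Eif2d, which can deliver initiator tRNA outside the ternary complex, gave -0.14 ± 0.37, with mutants from 660.1 to 1739.6. Eif2a, another carrier of initiator tRNA, gave 0.15 ± 0.24, and Eif1b, a paralog of the start codon factor eIF1, -0.09 ± 0.14 and -0.09 ± 0.20 at its 2 probe sets.

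The eIF2B exchange factor, which reloads eIF2 with GTP, showed little difference in its 4 measured subunits, from -0.27 for Eif2b4 to 0.01 for Eif2b5, with a median of -0.17. The 2 probe sets of Eif2b5 gave 0.01 ± 0.21 and -0.14 ± 0.25, which differ in sign within their errors. Eif2b1 read 2703, 2729 and 2208 in wild type and 2388, 2173 and 2122 in mutants, and the groups overlapped.

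The eIF3 scaffold, which holds the small subunit and the mRNA together, had a median difference of 0.07 over 10 subunits, 6 positive and 4 negative. Eif3e read 1624, 3779 and 2013 in wild type and 4393, 3776 and 1991 in mutants, a difference of 0.47 ± 0.36 (limma adjusted p 0.685) with overlapping groups, since mutants 6 and 8a lay inside the wild-type range. Without 8a that difference was 0.82. Eif3k, singled out after its values were seen, was the one subunit whose mutants all lay above wild type: it read 9929.5, 10335 and 11436 in wild type and 12089, 11931 and 20785 in mutants, the last far above the rest. Its log2 difference was 0.45 ± 0.20, with a limma adjusted p of 0.427, and 0.19 without 8a. The subunits Eif3a, Eif3b, Eif3c, Eif3d, Eif3h, Eif3j1, Eif3l and Eif3m ranged from -0.23 to 0.31 at their brightest probe sets.

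Among the regulators, Eif4ebp1 and Eif4ebp2 encode the 4E-BP proteins that block cap-dependent initiation. Eif4ebp1 read 7377, 10301 and 7502 in wild type, 9271, 7788 and 7205 in heterozygotes and 15131, 10972 and 15279 in mutants. Each mutant value lay above the highest of the other 6, by little in mutant 6, and the means were 8393 ± 1653 (SD, n = 3) in wild type and 13794 ± 2445 (SD, n = 3) in mutants. The log2 difference was 0.72 ± 0.19, 1.64-fold, and missed the threshold (limma adjusted p 0.125). Eif4ebp2 gave -0.21 ± 0.20 at its brighter probe set and -0.85 ± 0.48 at the other, whose mutant values were 2706, 1824 and 636, the lowest of all 9 being on 8a. Without 8a the differences of these probe sets were -0.34 and -0.25. Eef2k, the kinase that inhibits eEF2, gave -0.13 ± 0.26 and read near the floor throughout, from 230.1 to 773; without wild type 5, its highest value, the difference turned to 0.20.

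**Figure D4:**
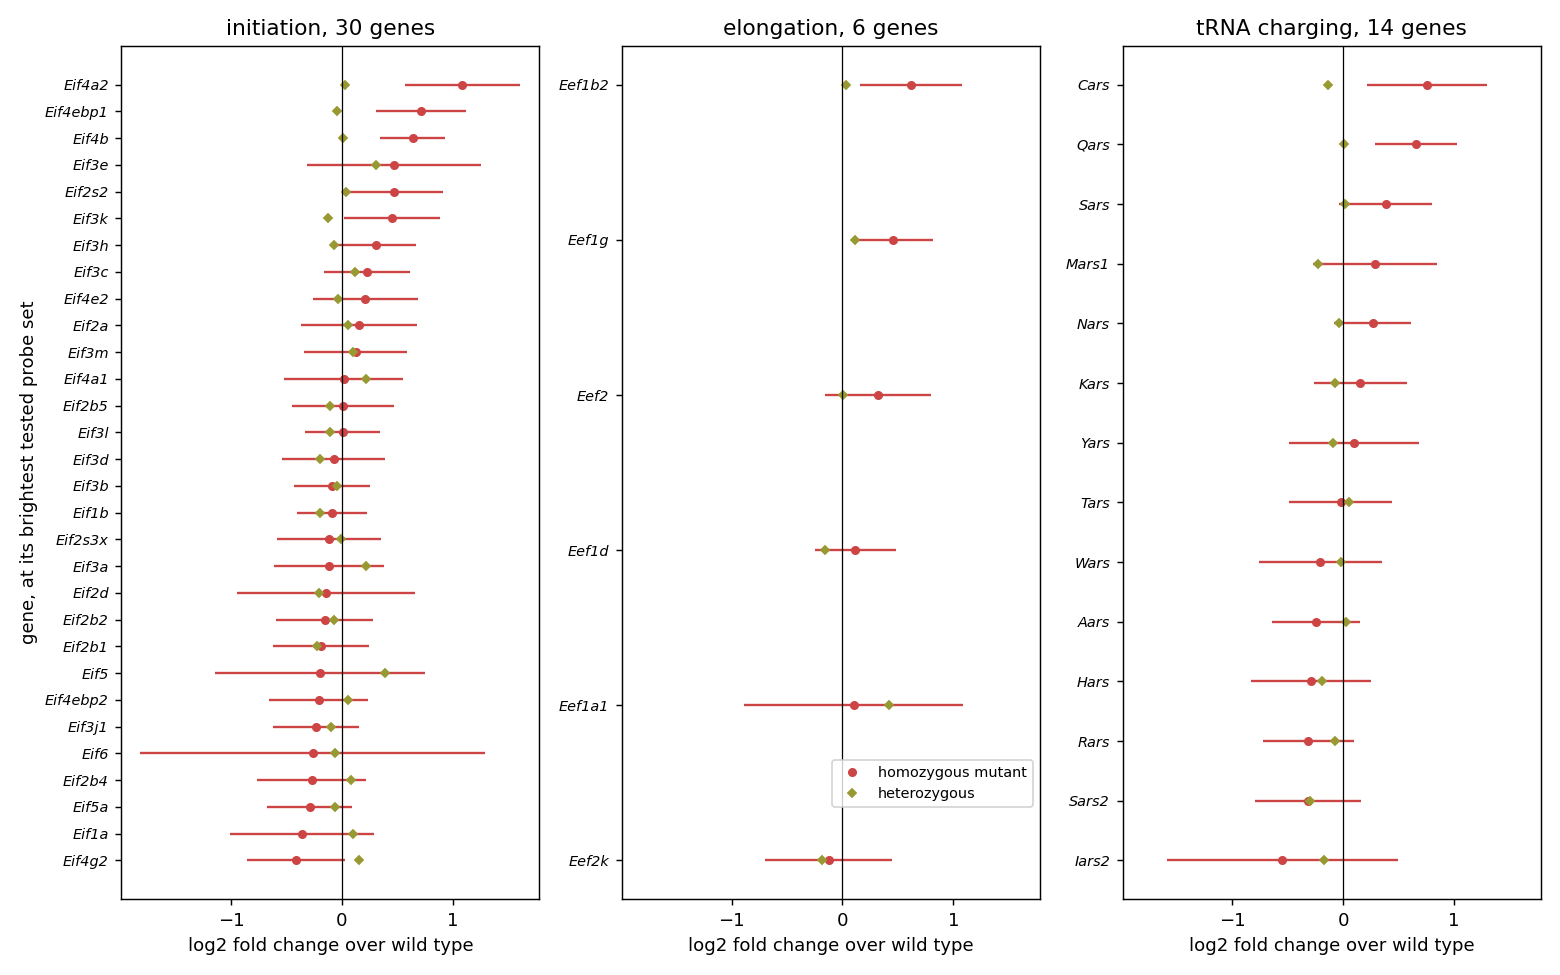
Circles with lines show the log2 difference of homozygous mutants from wild type with its unadjusted 95% interval, and diamonds that of heterozygotes, for the 50 tested genes at their brightest probe set. Eif4a2 at 1.09, Cars at 0.76 and Eef1b2 at 0.62 had the highest mutant difference of their roles, while every heterozygous difference lay between -0.30 and 0.42.

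The elongation factors differed among themselves. Eef1b2, an exchange factor subunit of eEF1, read 13103, 15594 and 15409.5 in wild type, 15483, 15444 and 14065 in heterozygotes and 17804, 19501 and 32724 in mutants. Each mutant value lay above the other 6, most of all 8a, and the log2 difference was 0.62 ± 0.21 (1.53-fold, limma adjusted p 0.278). Without 8a it was 0.35, with a limma adjusted p of 0.254. Eef1g, which anchors that complex, read 15593, 12663 and 15389.8 in wild type, 17963, 17186 and 12438 in heterozygotes and 20079, 18835 and 20577 in mutants. The 3 mutants lay close together above all others, with a difference of 0.45 ± 0.17 (limma adjusted p 0.327). The third subunit, Eef1d, read 20705, 15272 and 19001 in wild type and 19965, 18195 and 21089.6 in mutants, groups that overlapped (0.12 ± 0.17).

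Eef1a1 encodes eEF1A, which carries charged tRNA to the ribosome, and 4 of its probe sets were tested. All are of the class shared by related sequences, so copies of the gene may contribute. Their log2 differences ranged from 0.10 to 0.61, and 1 of the 4 had all mutants above wild type: it read 46399, 49453 and 38467 in wild type, 46945, 44500.2 and 43799 in heterozygotes and 50363, 53454 and 103292 in mutants, giving 0.55 ± 0.26 with a limma adjusted p of 0.458. Array 8a lay far above the rest, and the other 2 mutants lay much closer to the highest wild-type value. Without 8a this difference was 0.22, and the 4 probe sets, leaving out 8a or 9b, ranged from -0.27 on type b to 1.03 for the dimmest on type a. On type b the brightest probe set read 48624, 103090 and 62072 in wild type and 35477, 88842 and 121494 in mutants, a wide spread in both groups, and gave 0.10 ± 0.45. Eef2, the translocase, read 31007, 31665 and 36085 in wild type, 30566, 31840 and 36948 in heterozygotes and 31507, 49016 and 44734 in mutants. Mutant 2 lay with the controls and the other mutants above them, giving 0.32 ± 0.22 (limma adjusted p 0.648). The tested probe sets of Eef2, Eef1b2 and Eef1g are of the same shared class as those of Eef1a1. Related sequences may contribute to those readings too.

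The starts of Eef1a1 and Eef1b2, both elongation factors and so among the TOP genes named above, are set side by side. Each gene had a probe set with every mutant value above the other 6. Eef1a1 lies at chr9:78481705-78481764 on the minus strand and Eef1b2 at chr1:63176791-63176850 on the plus strand of GRCm38.p6, and capitals again mark runs of 7 or more C or T.
Eef1a1: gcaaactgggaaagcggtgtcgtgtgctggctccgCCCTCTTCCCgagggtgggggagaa
Eef1b2: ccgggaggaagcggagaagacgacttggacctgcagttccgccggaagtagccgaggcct
Eef1a1 carried a run of 10 such bases that spans its RefSeq start, and the Eef1b2 window held none of 7. Whether a RefSeq start is where the mRNA begins was not tested, so a run here need not be a TOP tract. In the Eef2 window, not printed, the longest run was 6. That run reached the last base of the window, so its full length was not measured.

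tRNA charging had no common direction. Of the 12 cytosolic synthetase genes 7 had a positive difference in mutants and 5 a negative one, and both mitochondrial ones, Sars2 and Iars2, were negative at their brightest probe sets. Qars, which charges glutamine tRNA, read 3032, 3104 and 3982 in wild type, 3219, 2930.3 and 4009.5 in heterozygotes and 5043, 5635 and 5188 in mutants. The mutants lay together above all other values, with means of 5289 ± 309 (SD, n = 3) against 3372 ± 529 (SD, n = 3), a log2 difference of 0.66 ± 0.17 (1.58-fold) and a limma adjusted p of 0.125. Cars, the cysteine enzyme, had the largest difference of the role: it read 1816, 1381 and 1990.3 in wild type, 1561, 1574 and 1533 in heterozygotes and 2888, 2108 and 3954 in mutants. Its mutants were above the other 6 values but spread widely, giving 0.76 ± 0.25 and a limma adjusted p of 0.252.

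Sars, the serine enzyme, read 3532, 4025 and 2358 in wild type and 4301, 4385 and 3940.3 in mutants and gave 0.38 ± 0.19 (limma adjusted p 0.494), the groups overlapping through wild type 5. Mars1, for methionine, gave 0.29 ± 0.26, and Nars, for asparagine, 0.27 ± 0.16. Tars, for threonine, gave -0.02 ± 0.21, with mutants at 2682, 2755 and 3318 inside the wild-type range of 2158 to 3784. Aars, for alanine, gave -0.24 ± 0.18 and -0.04 ± 0.15 at its 2 probe sets. The other enzymes, Kars (lysine) at 0.16 ± 0.19, Yars (tyrosine) at 0.10 ± 0.27, Wars (tryptophan) at -0.21 ± 0.25 and Hars (histidine) at -0.29 ± 0.25, all had overlapping groups.

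The arginine enzyme Rars had the lowest difference among the cytosolic enzymes, -0.31 ± 0.19. It read 2883, 3974 and 4981 in wild type and 3175, 3039.9 and 3079 in mutants, 3 nearly equal values inside the wild-type range. Of the mitochondrial enzymes, Sars2 read 832, 644 and 626 in wild type, 606, 538 and 552 in heterozygotes and 560.1, 479 and 644 in mutants, a difference of -0.32 ± 0.22. Iars2, for isoleucine, gave -0.55 ± 0.48 at its brighter probe set and 0.18 ± 0.29 at the other. The negative value rests on a single array, mutant 6, where the deposited intensity was -7.2; without it the difference was 0.01.

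Sequences are shown for Qars, and for Tars and Yars because synthetase promoters are known to carry the amino acid response element bound by Atf4, TGATGNAA. Qars is given from 40 bases before to 20 after its start, at chr9:108507965-108508024 on the plus strand of GRCm38.p6, with capitals on its run of C or T. Tars, at chr15:11399650-11399689 on the minus strand, and Yars, at chr4:129189890-129189929 on the plus strand, are 40-base stretches with the match in capitals, which Tars carries on the opposite strand.
Qars: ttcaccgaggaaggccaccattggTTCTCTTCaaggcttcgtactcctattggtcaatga
Tars: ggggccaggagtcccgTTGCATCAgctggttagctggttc
Yars: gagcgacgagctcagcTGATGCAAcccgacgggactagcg
Searched on both strands from 250 bases before to 50 after the start, TGATGNAA occurred in 4 of the 42 member genes with a window (9.52%), against 4.06% of the windows of all genes. The 4 were Aars, Tars and Yars, of 9 charging genes with a window, and Eif2s3x. Their log2 differences in mutants were -0.24 for Aars, -0.02 for Tars, 0.10 for Yars and -0.12 for Eif2s3x at the brightest probe sets, and Qars, with no match in its window, had 0.66. No match says only that these letters are not in this window.

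Heterozygotes showed no member that passed the test. Against wild type, 0 member probe sets were called by limma, as were 0.0% of all probe sets, and 0 had an unadjusted p under 0.05, against 1.7% of all. All 3 heterozygotes lay above wild type in 0 members, against 3.73% of all probe sets, and below in 2 members, Eif3k and Sars2, against 2.64% of all. The medians were -0.02 for initiation, 0.02 for elongation and -0.07 for charging, against 0.02 for all tested genes. The most distant members were Eef1a1 at 0.42 ± 0.45 and Eif5 at 0.39 ± 0.43 above, and Sars2 at -0.30 ± 0.22 and Mars1 at -0.23 ± 0.26 below, all with overlapping groups except Sars2. Eif4b in heterozygotes differed from wild type by 0.01 ± 0.13, Eif4a2 by 0.03 ± 0.24, Qars by 0.00 ± 0.17 and Cars by -0.14 ± 0.25.

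Homozygous mutants were also set against heterozygotes, a comparison that shares the mutant arrays with the one above. Eif4b rose: both of its probe sets were called, at log2 differences of 0.63 ± 0.13 and 0.59 ± 0.13 with limma adjusted p of 0.0486 and 0.0488. These were the 2 calls among 65 members, against 1.15% of all probe sets called in either direction and 0.735% called higher. The calls lie close to the threshold and both were lost without any single one of 8 of the 9 replicates, their limma adjusted p then reaching 0.211 without heterozygote 4, while leaving out mutant 8a and 9b gave 3 calls. The log2 difference of the first probe set stayed between 0.55 and 0.64 in those 8 fits. Where a wild-type replicate was left out, it could not move from 0.63.

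At an unadjusted p under 0.05, 10 members differed from heterozygotes, 9 higher and 1 lower, against 15.7% of all probe sets. The mutants lay above all heterozygotes in 14 member probe sets, against 9.99% of all, and below them in 5, against 12.6% of all. Of the 14, 6 were of initiation, 3 of elongation and 5 of charging, the charging genes being Cars, Mars1, Nars, Qars and Sars. Below were Eif1a, Eif3a, Eif4g2, Eif5a and Rars. Eif4g2, at -0.57 ± 0.20, was the one with an unadjusted p under 0.05 (0.0151, limma adjusted p 0.193). Eif4a2 gave 1.06 ± 0.24 (limma adjusted p 0.0574), Eif4ebp1 0.76 ± 0.19 (0.0729), Qars 0.65 ± 0.17 (0.0894) and Cars 0.89 ± 0.25 (0.110), none past the threshold.

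Genes that act around these factors were taken from lists made by function. Of 14 tested genes of the Atf4 and amino acid response, 1 was called higher in mutants against wild type and 0 lower, with a median of 0.24 and 11 positive. The called gene was Asns, asparagine synthetase: it read 2971, 3234 and 2494 in wild type, 2879.5, 3185 and 2757 in heterozygotes and 9124, 5354 and 7642 in mutants. Asns rose by 1.32 ± 0.20 on the log2 scale (2.50-fold, limma adjusted p 0.0111). Atf4 itself read 10739, 11656 and 8425 in wild type, 10889, 10492 and 11223 in heterozygotes and 16865, 15157 and 14434 in mutants, and its difference of 0.60 ± 0.15 missed the threshold (limma adjusted p 0.117), although the mutants lay above every other value. Atf3, a stress-induced transcription factor chosen after its values were seen, was under the floor on all wild-type and heterozygous arrays and above it on the 3 mutant arrays, at 518, 391 and 462, at least 1.21-fold higher against the floor (limma adjusted p 0.535).

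Of 6 tested genes of mTORC1 and Mnk control, 1 was called higher and 0 lower, with a median of 0.15. It was Ddit4, an inhibitor of mTORC1, at 2618, 2208 and 2219 in wild type, 1937, 3021 and 3089.7 in heterozygotes and 25899, 20959 and 24797 in mutants, a log2 difference of 3.35 ± 0.21 (limma adjusted p 3.67e-05). Pdcd4, an inhibitor of eIF4A chosen after its values were seen, read 2621, 3206 and 1728 in wild type and 4737, 4587 and 4046 in mutants, which did not overlap, and gave 0.87 ± 0.27 (limma adjusted p 0.224). In the other lists no gene was called in any comparison: 5 tested genes of termination and ribosome recycling had a median of -0.06 in mutants against wild type, 2 of poly(A)-binding proteins 0.08, 3 of synthetases outside the symbol rule 0.19, 3 of enzymes that modify Eif5a and Eef2 -0.17, and the 1 mitochondrial translation factor -0.25.

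Markers of other tissues were measured on the same arrays. The 5 tested neural markers had a median log2 difference of -1.07 in mutants against wild type, all negative and 0 called (1, Hes5, called lower against heterozygotes), and their summed intensity ran from 5317 to 9112 in mutants against 11753 to 17580 in wild type and 12207 to 15294 in heterozygotes. Pax6 and Sox3 of that list were not tested. The 6 heart muscle markers had a median of 0.09, with sums from 83201 to 191409 in mutants and 103335 to 147029 in wild type, the 5 red cell markers 0.02, the 6 liver bud and visceral endoderm markers 0.07, and the 4 endothelial markers 0.10. The part of tissue composition in the differences of Eif4b, Eif4a2, Eif4ebp1, Qars, Cars and the elongation factors was not tested.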

How the data were processed

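The values are intensity per probe set, as deposited by the authors in one table per array type. Some are below 0 and trimmed means are nearly equal between arrays, so background subtraction and scaling came before deposit. Software is not given in the sources used here. Probe sets were named through the platform annotation, with symbols of the GRCm38.p6 RefSeq table. The noise SD was 1.4826 times the median size of the negative values, and the floor 2 noise SDs. Floored intensity was converted here from the deposited values to log2 and fitted with limma version 3.58.1 under R 4.3.3, with genotype as the only term over all 9 arrays of a type and moderated two-sided tests whose variance prior follows intensity (trend), with Benjamini-Hochberg adjustment over both types. On simulated data for a mutant comparison, 75% of probe sets changed by log2 1 and 0.156% of unchanged ones were called. The changed ones, 200 by log2 1 and 200 by log2 2, were drawn only from probe sets far above the floor on all 9 arrays. The real comparison gave 48 calls, and several members, such as Cars, are dimmer. The share of 75% therefore need not hold for such members or for fewer real changes. With 3 arrays per genotype and type, their number limits the precision. The members and lists were chosen with earlier results of these data known. Genes were named with values by a rule: every called member, in each role the highest and lowest differences and the brightest genes, probe sets that disagree in sign, Eif2s3x and the regulators. Members outside it were chosen after their values were seen, as was Atf4, or account for the remaining tested genes (Eif4e2, Eif2a, Eif1b, Kars, Yars, Wars and Hars). Array 8b of heterozygotes lacks 499 values, none of a member.

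Alternatives were another floor or filter, quantile or median scaling, no trend, other sets of arrays, each replicate left out, and a block for the replicates with the highest Afp of their genotype (wild type 1, heterozygote 4, mutant 2). Proteins and a genome were not used here.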

Additional observations from a re-analysis of the deposited data

How the results depend on the processing

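No member was called in heterozygotes against wild type under any alternative. Mutants against wild type gave 2 calls with the floor doubled, 1 with no filter, with quantile normalization or with adjustment within each array type, 3 with equal medians, and 0 to 3 over the fits that left out a replicate, all of Eif4b except for Eif4a2 with equal medians and without mutant 8a and 9b. Mutants against heterozygotes gave 0 calls with the floor halved, without trend, with only the compared genotypes or with the Afp block, 1 with quantile normalization or with 6 arrays above the floor required, and 0 to 3 with a replicate left out. The cause was not tested.

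Medians against wild type in mutants ran from -0.0799 to 0.0686 (without mutant 8a and 9b) for initiation and from 0.164 to 0.477 (without mutant 2) for elongation with a replicate left out. The elongation median of heterozygotes was -0.0530 with equal medians. Against heterozygotes, the initiation median was 0.10 with the floor doubled, 0 with no filter, 0.11 with equal medians and -0.00296 to 0.0948 with a replicate left out, and the charging median was -0.0199 with 6 arrays required, 0.15 with quantile normalization, 0.16 with equal medians and 0.0153 to 0.225 with a replicate left out.

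Over 37 named probe sets, 674 of 739 alternatives kept direction and side of the threshold, 24 changed sign within 1 SE of 0, 11 passed the threshold and 26 no longer did. Leaving out a replicate of a genotype not compared, or dropping the trend, could not change a log2 difference. Nor could adjusting within each array type, fitting only the compared genotypes or adding the Afp block. Direction was therefore fixed in advance in those alternatives. The 4 that reversed were, with their range over the replicates left out, Eif5 (-0.56 to 0.38) and the second probe set of Eif2s3x (-0.31 to 0.20), both positive without mutant 8a and 9b, Eef2k (-0.32 to 0.20), positive without wild type 5, and Iars2 (-0.84 to 0.0100), positive without mutant 6. No paired analysis was possible because the genotypes share a single replicate number, 8. Signal near the floor limits Kars, Eef2k and Eif3j1.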

Other observations

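A further probe set is annotated to Eef1a1 together with Mir703 and Gm6548 and was left out by the symbol rule. It read 36722, 40630.3 and 32114 in wild type, 37803, 36260.6 and 32028 in heterozygotes and 44608, 44033 and 58544 in mutants. The mutants lay above all other values, as for one of the 4 single-gene Eef1a1 probe sets, and the log2 difference from wild type was 0.42 ± 0.18 (SE), with a limma adjusted p of 0.415.

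On the type b array of mutant 6, a probe set of Pabpc1, the main poly(A)-binding protein, singled out after its values were seen, read 412, while the other 8 arrays read 26154 to 36776. The other Pabpc1 probe set read 41138 on that array. The same array gave the value of -7.2 for Iars2, whose second probe set read 1495 there.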
